A study of Mus musculus with 2 samples.

Results

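*Cxcl12* and the genes of its receptors, *Cxcr4* and *Ackr3*, were followed through the cells of the early rib callus. These are 3 of the 31054 genes in the count matrices. They were chosen as a ligand and the receptors known to bind it. The paper on these data had already reported fewer *Cxcl12*-expressing cells in a connective cluster of the *Smo* cKO library. The choice of *Cxcl12* was therefore not independent of its difference between the libraries. The cells were all those with at least 200 detected genes and under 10% mitochondrial UMIs (unique molecular identifiers, counted transcript molecules), which kept 10057 of 10747 control and 9507 of 10512 *Smo* cKO barcodes. At least 1 UMI of these genes was present in 5749 control and 4950 *Smo* cKO cells.

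CXCL12 is a secreted chemokine that stromal cells of the bone marrow make in quantity and that holds hematopoietic cells in their niche. It signals through CXCR4, a receptor that couples to inhibitory G proteins and guides the migration of leukocytes, endothelial cells and muscle precursors. ACKR3 is an atypical chemokine receptor that binds CXCL12, recruits arrestins in place of G proteins and takes the chemokine into the cell, which removes it from the surroundings.

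The study asked how Hedgehog (Hh) signaling in Sox9+ lineage cells shapes the callus of a large rib injury, and profiled it by single-cell RNA sequencing (scRNAseq) at 4 days post injury (dpi). Control mice were *Sox9*:CreER;*R26*:tdT;*Smo* f/+ and *Smo* cKO mice *Sox9*:CreER;*R26*:tdT;*Smo* f/f, where *Smo* encodes the transducer Smoothened. All animals were aged 8 to 12 weeks, carried the CreER and the tdTomato reporter, and received 3 tamoxifen injections before a 3 mm rib resection. The CreER acts only in cells that express *Sox9* at the time of tamoxifen, so cells without *Sox9* at that time retain *Smo* in the *Smo* cKO, and the control keeps 1 intact allele throughout. Calluses of 3 animals per genotype were pooled into 1 library, so there is 1 sample per genotype and no p-value can be given. All intervals are 95% intervals of counting error only and do not cover variation between animals.

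Median depth was 8367 UMIs per kept control cell and 9092 UMIs per kept *Smo* cKO cell. Both libraries held 613 barcodes in common, of which 486 had UMI totals that differed 20-fold or more (median 60.8-fold). The low copies of these barcodes made up 336 kept control and 148 kept *Smo* cKO cells, with 0.210% and 0.0803% of the UMIs, and 349 of the 484 were called connective. For the genes followed here, ratios over connective and hematopoietic cells, macrophages and 5 connective subclasses are given below with and without them. A further 18 ratios moved by at most 0.024 on the log2 scale when they were left out. Among these were *Smo* in connective, skeletogenic-like and satellite-like cells, and ratios in neutrophil-like, osteoclast-like and tendon-like cells. Ratios outside these were not recomputed without the low copies. Cells were assigned to classes by fixed marker lists that did not include the genes followed here, which left 81 and 60 cells without a class and 6.61% and 5.32% without a subclass. None of the 25 gated groups had more markers of another class than of its own class among its 10 leading genes. The same markers assigned the cells, so this describes the groups and does not check the gate. Monocyte-like, dendritic-like, NK cell-like and B cell-like cells each had only 1 marker of their own list there.

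*Smo*, the deleted gene, was measured first. It had 1677 UMIs in control and 1059 UMIs in *Smo* cKO connective cells, or 19.1 and 12.2 CPM (UMIs of the gene in every 1000000 UMIs of the class). The log2 ratio, *Smo* cKO over control, was −0.65 (exact interval −0.77 to −0.54). In skeletogenic-like cells, led by *Acan* and *Fmod*, *Smo* was at 20.3 and 11.1 CPM, a log2 ratio of −0.87 (−1.34 to −0.42). Satellite-like muscle cells had 20.5 and 10.9 CPM (−0.91, −1.48 to −0.34). The libraries thus differed in the labelled direction in these cells. In hematopoietic cells the ratio was −0.71 (−1.58 to 0.14, from 29 and 22 UMIs). In endothelial cells it was −2.21 (−5.46 to 0.06, from 9 and 2 UMIs), and in tendon-like connective cells −0.39 (−0.85 to 0.07). These intervals include no difference, while that of lymphatic endothelial cells alone did not (−3.26, −8.76 to −0.30, from 7 and 1 UMIs). The lower level was not particular to connective cells, since satellite-like cells had it as well. Whether it follows the deletion in *Sox9*-expressing cells was not tested. The counted tags need not lie in the deleted part of the gene, so the level does not measure how many cells lost it.

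Most UMIs of the ligand and its scavenging receptor lay in connective cells, and most of the signaling receptor in hematopoietic cells. Connective cells held 96.4% of 14822 control and 94.4% of 9987 *Smo* cKO UMIs of *Cxcl12*, and 2613 of 2811 and 2005 of 2270 UMIs of *Ackr3* (88.3% in the latter). *Cxcr4* had 71.2% of 1992 and 70.3% of 2052 UMIs in hematopoietic cells, although these were the shallower cells with a median of 2654 and 3169 UMIs. The connective cells, at a median of 11126 and 13876.5 UMIs, held 392 and 348 of the *Cxcr4* UMIs. Since connective cells held most UMIs of all genes, the shares are set beside levels. *Ackr3* was at 29.8 and 23.0 CPM in connective cells and at 27.0 and 20.5 CPM over all kept cells, so its share was near theirs of all UMIs. *Cxcl12* was at 163 and 108 CPM against 142 and 90.1 CPM. *Cxcr4* was at 133 and 109 CPM in hematopoietic cells against 19.1 and 18.5 CPM over all kept cells.

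**Figure D1:**
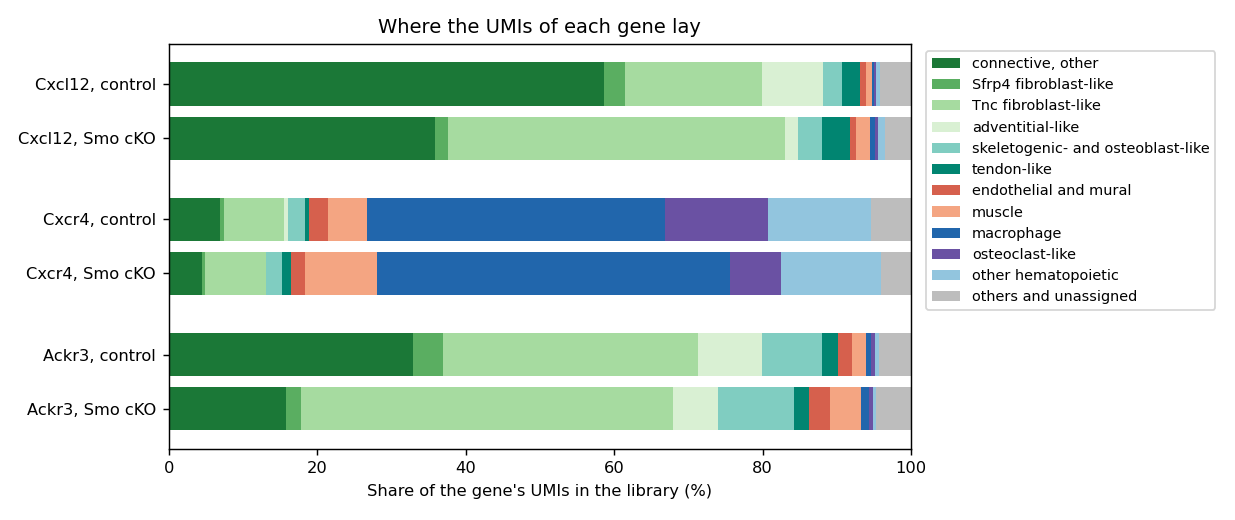
Horizontal bars show, for each gene and library, the percent of the gene's UMIs that lay in each gated class (colours, summing to 100%). Greens and teals show the connective subclasses, and connective cells without a subclass are in the grey part. With them, connective cells held 96.4% and 94.4% of the *Cxcl12* UMIs and at least 88.3% of the *Ackr3* UMIs. Macrophages (dark blue) held 40.2% and 47.6% of the *Cxcr4* UMIs.

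*Cxcl12* (ENSMUSG00000061353) lies on the plus strand of chromosome 6 from 117168535 to 117181367 of GRCm38. Its level was highest in adventitial-like cells, a connective subclass led by *Pi16* and *Clec3b*, with 404 CPM (381 to 427) over 421 control cells and 180 CPM (155 to 208) over 123 *Smo* cKO cells. Connective cells that took the general connective list, called unsubtyped here, had 245 and 124 CPM in 2812 and 1888 cells. Cells without a subclass are not among them. Their leading genes were *Sfrp1*, *Igf1* and *Col14a1*, and *Sfrp4* was among the first 10. *Col14a1* and *Sfrp4* are also on the marker list of the next group, so the groups share marker expression. Sfrp4 fibroblast-like cells, led by *Eln* and *Sfrp4*, had 166 and 79.2 CPM. Tnc fibroblast-like cells, led by *Il11*, *Inhba* and *Tnc*, had 83.3 and 106 CPM. Tendon-like cells (*Tnmd*, *Thbs4*) were at 93.7 and 77.2 CPM, skeletogenic-like cells at 50.7 and 58.7 CPM and osteoblast-like cells at 49.0 and 49.1 CPM. When the 25 groups were ordered by their mean level, 17 of the 24 neighbouring pairs overlapped in the range between their 2 libraries. There was no gap from adventitial-like down to tendon-like cells, a stretch that includes the erythroid gate and NK cell-like cells described below. This range spans control and *Smo* cKO and is not a spread of replicates. Within each library adventitial-like cells were above unsubtyped cells (404 against 245 CPM, and 180 against 124 CPM).

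Outside the connective cells *Cxcl12* was present in blood endothelial cells, with 84 UMIs in 47 control cells and 59 UMIs in 42 *Smo* cKO cells (162 and 133 CPM, ratio −0.28, −0.79 to 0.21). Lymphatic endothelial cells, marked by *Ccl21a* and *Mmrn1*, had 2 and 1 UMIs in 24 and 36 cells, or 7.29 and 2.66 CPM. The endothelial signal was set beside *Col3a1*, an abundant collagen transcript of connective cells that marks their free RNA. *Cxcl12* had 16.9 and 13.6 UMIs per 1000 *Col3a1* UMIs in connective cells, 17.5 and 18.6 in macrophages, 18.4 and 16.7 in satellite-like cells, and 275 and 252 in blood endothelial cells. In macrophages and satellite-like cells the ratio to *Col3a1* was thus near that of connective cells, which free connective RNA would give, and their *Cxcl12* (11.4 and 10.4 CPM, 40.6 and 30.8 CPM) is not read as expression. In blood endothelial cells *Cxcl12* was far above that ratio. Cells with at least 2 markers of arterial endothelium (8 in each library) had 157 and 140 CPM, those with tip cell markers 119 and 173 CPM, and those with venous markers 139 and 104 CPM, with some cells in more than 1 list. These endothelial values rest on 24 to 52 UMIs each.

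In some small groups much of the *Cxcl12* lay in single cells. NK cell-like cells had 30 and 21 UMIs, and 20 of the control UMIs were in 1 cell. Of 11 *Cxcl12* UMIs in *Smo* cKO neutrophil-like cells, 10 were in 1 cell. The erythroid gate had 176 and 43.8 CPM, with a *Cxcl12* UMI in 57.9% of 38 control and 16.3% of 98 *Smo* cKO cells. Whether these cells were doublets was not tested.

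**Figure D2:**
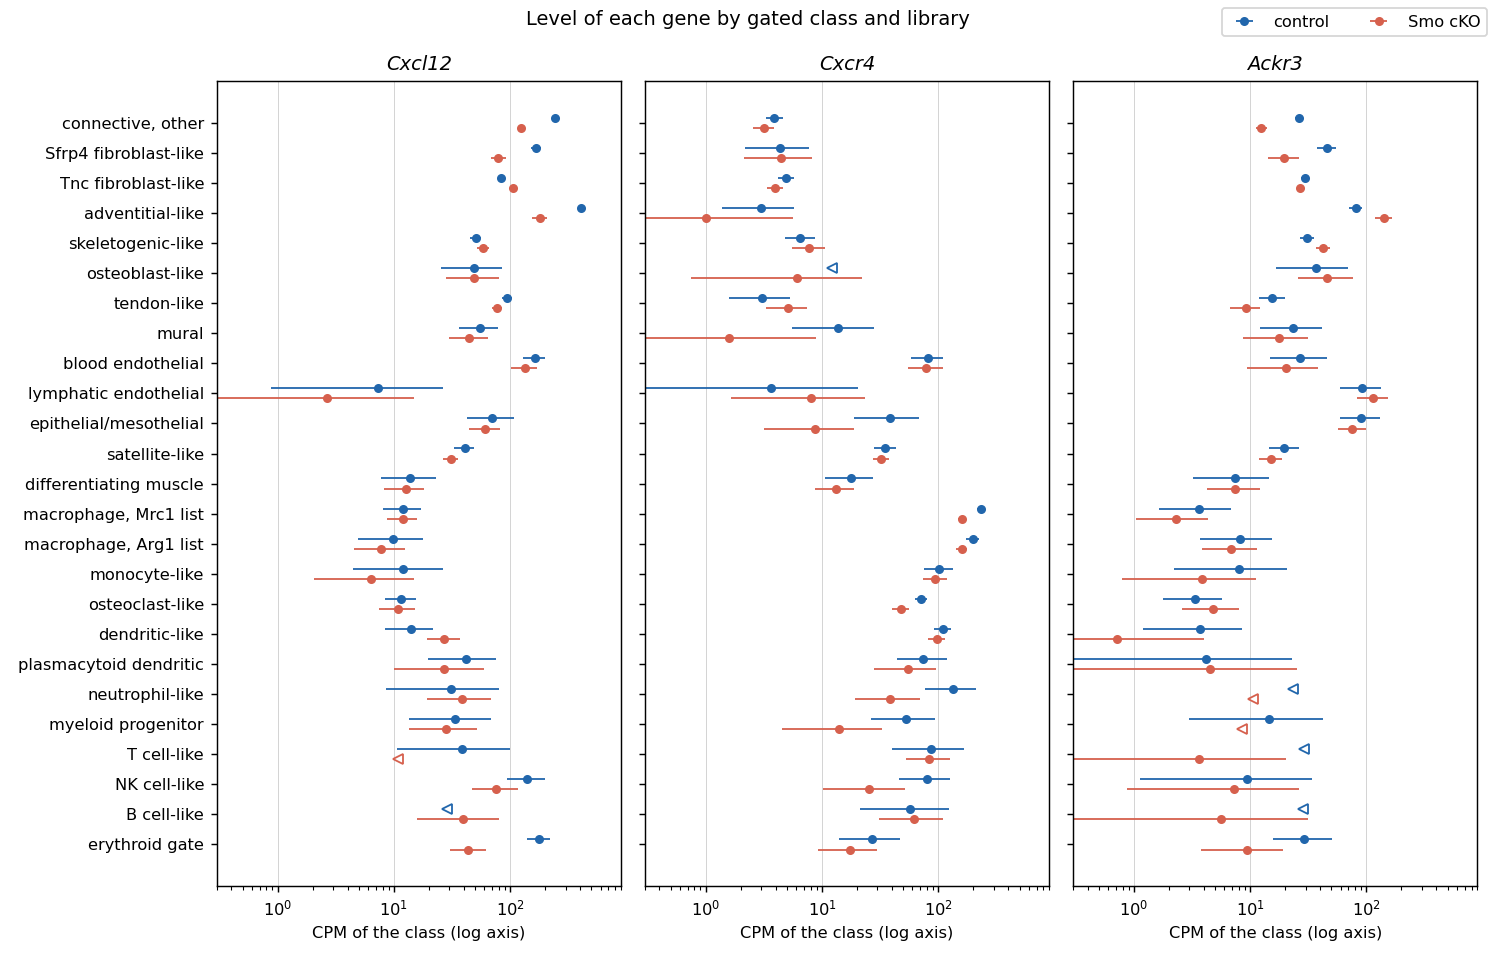
The level of each gene (CPM of the class, log axis) is shown by gated class for the control (blue) and *Smo* cKO (red) library, with exact Poisson 95% intervals. Open triangles mark groups with no UMI, drawn at the level that 3 UMIs would give. In adventitial-like cells *Cxcl12* reached 404 CPM and *Ackr3* 141 CPM, and in macrophages *Cxcr4* reached 234 CPM.

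Between the libraries, *Cxcl12* was lower in the *Smo* cKO over all connective cells, at 108 CPM against 163 CPM (log2 ratio −0.59, −0.63 to −0.55). Without the low copies of shared barcodes the ratio was the same (−0.59). The subclasses did not share this difference. The ratio was −1.16 (−1.40 to −0.94) in adventitial-like, −1.07 (−1.33 to −0.81) in Sfrp4 fibroblast-like and −0.98 (−1.04 to −0.93) in unsubtyped connective cells. Tnc fibroblast-like cells went the other way, with a ratio of 0.35 (0.28 to 0.42). The difference between subclasses was not tested. In skeletogenic-like cells it was 0.21 (−0.01 to 0.44), and its interval includes no difference. Among all genes at 50 CPM or more, 1.26% in adventitial-like and 0.691% in Sfrp4 fibroblast-like cells were lower in the *Smo* cKO by at least 2-fold. *Cxcl12* was among them in both, but it was followed with its decrease in these libraries already reported. Without the low copies these ratios stood at −1.16, −1.07, −0.98, 0.35 and 0.21, in the order given.

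The share of *Cxcl12* UMIs shifted with these ratios and with the numbers of cells. Unsubtyped connective cells held 58.6% (control) and 35.9% (*Smo* cKO) of its UMIs, and Tnc fibroblast-like cells 18.5% and 45.3%. Adventitial-like cells made up 4.19% of control and 1.29% of *Smo* cKO cells, and held 8.18% and 1.79% of the *Cxcl12* UMIs. Since each genotype is 1 library, fewer cells of a type in the callus and fewer cells recovered cannot be told apart.

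The depth per cell mattered for *Cxcl12*. At least 1 *Cxcl12* UMI was found in 3714 control (55.6%) and 3002 *Smo* cKO (54.0%) connective cells. When each cell was thinned to 1000 UMIs the shares were 14.0% of 6373 and 8.93% of 5398 cells, which differ by −5.08 percentage points (−6.22 to −3.94, Newcombe), against 1.08% and 1.17% of macrophages at the same depth. Over the thinned cells, in which each cell weighs the same, the log2 ratio was −1.01 (−1.15 to −0.86) over all connective cells and 0.0013 (−0.29 to 0.30) in Tnc fibroblast-like cells, where the interval then includes no difference. In Sfrp4 fibroblast-like cells it was −1.75 (−2.55 to −1.02) and in adventitial-like cells −0.85 (−1.43 to −0.30), which is under 2-fold. A stricter gate put Sfrp4 fibroblast-like cells under 2-fold as well (−0.83, −1.12 to −0.54). Among cells with at most 2000 genes the ratio over all connective cells was −1.64 (−1.80 to −1.49). This limit left 2503 of 14295 control and 386 of 9430 *Smo* cKO *Cxcl12* UMIs, so it describes a small part of these cells. Without the cells of highest Scrublet doublet score it was 0.58 (0.50 to 0.65) in Tnc fibroblast-like and 0.45 (0.19 to 0.70) in skeletogenic-like cells.

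*Cxcr4* (ENSMUSG00000045382) lies on the minus strand of chromosome 1 from 128588199 to 128592293. Macrophages had the highest level. Cells with the *Mrc1* macrophage list, led by *C1qa* and *Apoe*, had 234 CPM in 932 control cells (580 UMIs) and 160 CPM in 1069 *Smo* cKO cells (630 UMIs). Cells with the *Arg1* list, led by *Pf4*, *Arg1* and *Gpnmb*, had 198 CPM in 398 and 158 CPM in 634 cells. Dendritic-like cells (109 and 96.6 CPM), monocyte-like cells (101 and 94.0 CPM) and T cell-like cells (87.2 and 83.6 CPM) followed, and the ranges of neighbours overlapped from dendritic-like through monocyte-like and neutrophil-like to T cell-like cells. In all, 21 of 24 neighbouring pairs overlapped for *Cxcr4* and 22 of 24 for *Ackr3*. Osteoclast-like cells, led by *Acp5* and *Mmp9*, were at 71.3 and 47.7 CPM and plasmacytoid dendritic cells at 74.5 and 54.5 CPM. B cell-like cells, led by *Igkc* and *Jchain*, were at 57.3 and 61.8 CPM. Few UMIs underlie the T cell-like (9 and 23), plasmacytoid dendritic (18 and 12) and B cell-like (6 and 11) values.

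Among cells that are not hematopoietic, *Cxcr4* was found in blood endothelial cells, at 81.1 control and 79.0 *Smo* cKO CPM (42 and 35 UMIs), and in satellite-like cells, at 34.8 CPM (85 UMIs) and 32.1 CPM (171 UMIs). The differentiating muscle cells, which express *Acta1* and *Myog*, had 17.6 and 13.1 CPM. *Tyrobp*, an adaptor of myeloid cells, marked their free RNA. There were 64.7 and 47.5 *Cxcr4* UMIs per 1000 *Tyrobp* UMIs in hematopoietic cells, 113 and 91.6 in connective cells, 1250 and 1056 in satellite-like cells and 3000 and 2059 in blood endothelial cells. The endothelial and satellite-like signal was therefore many times above what hematopoietic RNA in these cells would carry. In connective cells *Cxcr4* was at 4.47 and 3.99 CPM, with a ratio to *Tyrobp* within 2-fold of the hematopoietic ratio, so it was not told apart from RNA of hematopoietic cells. Lymphatic endothelial cells had 1 and 3 *Cxcr4* UMIs.

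*Cxcr4* was lower in the *Smo* cKO library in macrophages. Both macrophage lists together had 223 control CPM (207 to 239) and 159 *Smo* cKO CPM (149 to 170), a log2 ratio of −0.48 (−0.62 to −0.35), and −0.48 without the low copies of shared barcodes. The ratio was −0.55 (−0.71 to −0.38) for the *Mrc1* list and −0.32 (−0.57 to −0.07) for the *Arg1* list. After thinning to 1000 UMIs, 21.2% of control and 14.9% of *Smo* cKO macrophages had a *Cxcr4* UMI (difference −6.34 percentage points, −9.25 to −3.48), against 0.424% and 0.500% of connective cells. Before thinning, 40.8% and 36.9% of macrophages had one, at median depths of 2386 and 3157 UMIs.

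Osteoclast-like cells showed the same direction, with a log2 ratio of −0.58 (−0.88 to −0.28), while the thinned share of cells was 6.47% and 5.75%, a difference of −0.72 points with an interval (−4.41 to 3.62) that includes none. For monocyte-like (−0.10, −0.64 to 0.45), dendritic-like (−0.17, −0.52 to 0.17) and T cell-like cells (−0.06, −1.23 to 1.24) the intervals included no difference and reached past the macrophage ratio. Over all hematopoietic cells *Cxcr4* was at 133 and 109 CPM, a ratio of −0.28 (−0.39 to −0.18), and −0.28 without the low copies. The ratio in blood endothelial cells was −0.037 (−0.73 to 0.65) and in satellite-like cells −0.12 (−0.50 to 0.28).

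Neutrophil-like cells, led by *S100a8* and *Ngp*, had 17 *Cxcr4* UMIs in 82 control cells and 11 in 115 *Smo* cKO cells, or 133 and 38.6 CPM. The log2 ratio of −1.78 had a wide interval (−3.02 to −0.60). By Louvain clusters it was −0.996 (−1.92 to −0.10, from 28 and 19 UMIs), and over thinned cells −1.24 (−3.09 to 0.56). The thinned shares of 14.6% and 6.19% differed by −8.40 points with an interval (−21.4 to 1.51) that includes none. In this sparse group 12.3% of all genes at 50 CPM or more were lower in the *Smo* cKO by at least 2-fold, so *Cxcr4* did not stand out there by its fold. NK cell-like cells were similar in kind, with 17 and 7 *Cxcr4* UMIs (−1.65, −3.16 to −0.30). At least 2 markers of the mature neutrophil list were held by 76 control and 110 *Smo* cKO cells, with all 17 and 11 *Cxcr4* UMIs, and at least 2 of the immature list by 54 and 96 cells, with 12 and 9 *Cxcr4* UMIs. The cells of these lists overlapped.

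**Figure D3:**
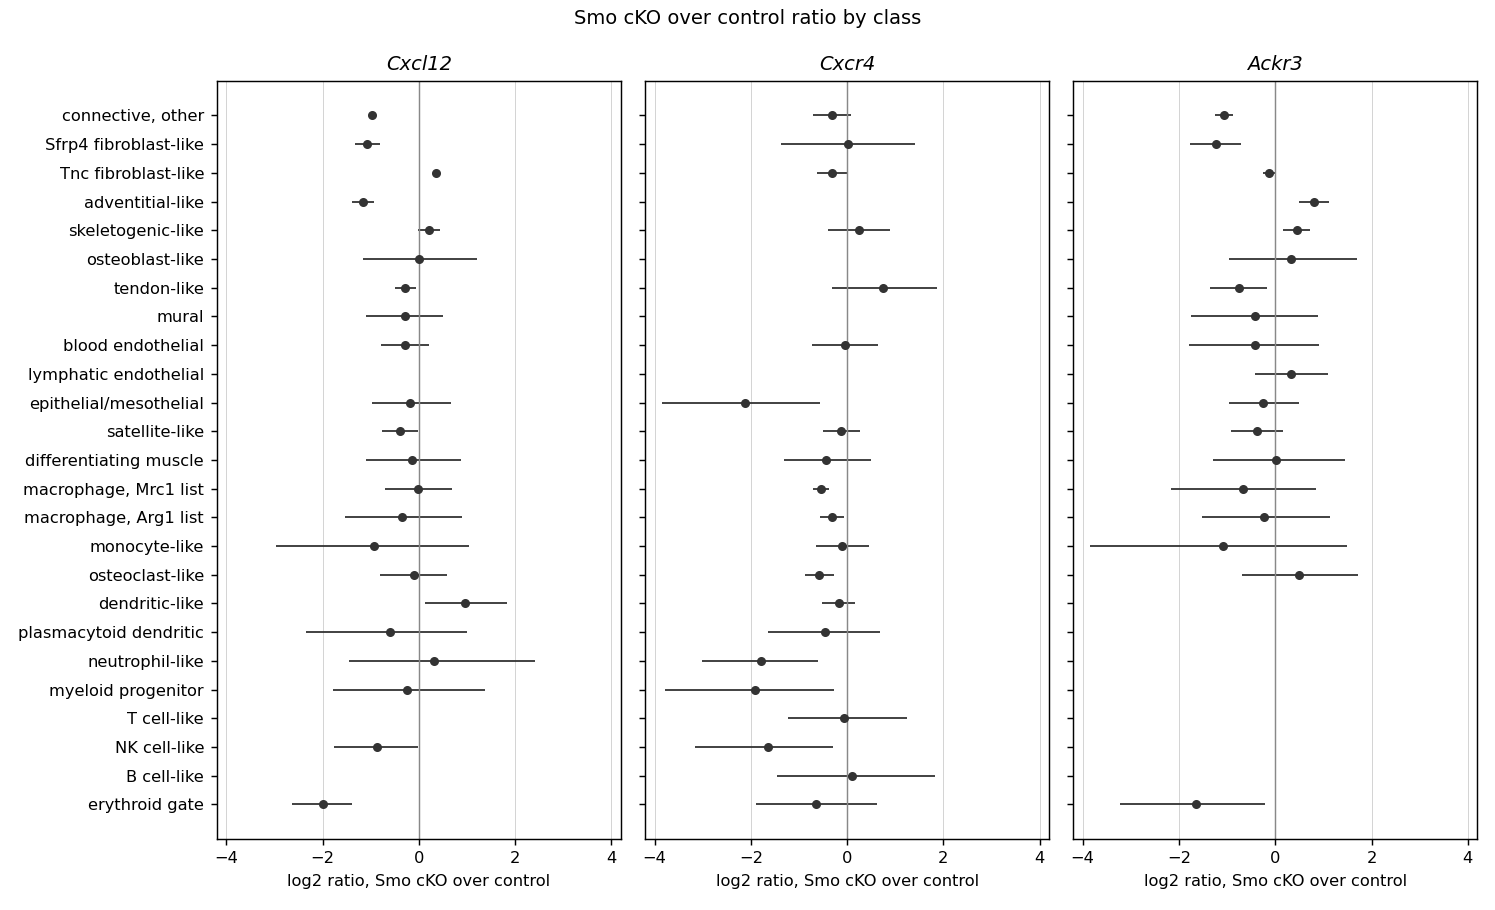
Points show the log2 ratio, *Smo* cKO over control, of each gene by class, with exact 95% intervals of counting error. Groups with under 3 UMIs in either library are left blank. *Cxcl12* lay at −0.98 to −1.16 in 3 connective subclasses and at 0.35 in Tnc fibroblast-like cells, *Cxcr4* at −0.55 and −0.32 in the macrophage lists, and *Ackr3* at −1.23 in Sfrp4 fibroblast-like and 0.81 in adventitial-like cells.

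*Ackr3* (ENSMUSG00000044337) lies on the plus strand of chromosome 1 from 90203980 to 90216751. Its highest levels were in adventitial-like cells (80.5 CPM from 242 UMIs and 141 CPM from 140 UMIs), lymphatic endothelial cells (91.1 CPM from 25 UMIs and 114 CPM from 43 UMIs) and the epithelial or mesothelial cells, led by *Upk3b*, *Msln* and *Krt8* (90.1 CPM from 26 UMIs and 75.5 CPM from 52 UMIs). The ranges of the adventitial-like and lymphatic cells overlapped. Those of lymphatic and epithelial or mesothelial cells did not, but their counting intervals did (59.0 to 135 and 58.8 to 132 CPM in the control), so these neighbours are not told apart. Against *Col3a1*, *Ackr3* had 3.08 and 2.89 UMIs per 1000 in connective cells, 78.9 and 289 in lymphatic, 45.8 and 38.5 in blood endothelial, and 24.3 and 19.1 in epithelial or mesothelial cells. The lymphatic endothelium had almost no *Cxcl12* or *Cxcr4* (2 and 1, and 1 and 3 UMIs). Blood endothelial cells had 14 and 9 *Ackr3* UMIs, or 27.0 and 20.3 CPM. Mural cells, led by *Rgs5*, had 12 and 11 (23.5 and 17.5 CPM), at 5.96 and 4.70 UMIs per 1000 *Col3a1* UMIs and with no *Ackr3* UMI in a cell thinned to 1000 UMIs, and satellite-like cells 48 and 80 UMIs, at 8.94 and 8.12 UMIs per 1000 *Col3a1* UMIs.

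The other connective subclasses had *Ackr3* at 45.8 and 19.5 CPM (Sfrp4 fibroblast-like), 30.9 and 42.2 CPM (skeletogenic-like), 29.3 and 26.8 CPM (Tnc fibroblast-like), 26.1 and 12.5 CPM (unsubtyped) and 15.5 and 9.14 CPM (tendon-like). Hematopoietic cells as a whole had 47 *Ackr3* UMIs in each library, or 4.40 and 3.56 CPM, at 5.18 and 4.74 UMIs per 1000 *Col3a1* UMIs. No *Ackr3* UMI was found in 82 control and 115 *Smo* cKO neutrophil-like cells. At their depth 3 UMIs would be 23.5 and 10.5 CPM, so a level below that was not detectable.

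*Ackr3* differed between the libraries in opposite directions among connective subclasses. It was lower in the *Smo* cKO in Sfrp4 fibroblast-like cells (log2 ratio −1.23, −1.77 to −0.72), where 1.37% of genes at 10 CPM or more were lower by at least 2-fold, and in unsubtyped connective cells (−1.06, −1.24 to −0.89), where 0.451% were. With all UMIs, the ratio in both was close to that of *Cxcl12* in the same cells (−1.07 and −0.98). With each cell thinned to 1000 UMIs they lay further apart, though their intervals overlapped. *Cxcl12* was then at −1.75 and −1.22, and *Ackr3* at −1.19 and −0.69. Tendon-like cells had −0.76 (−1.35 to −0.18). In adventitial-like cells *Ackr3* was higher in the *Smo* cKO (0.81, 0.50 to 1.11), by under 2-fold, while *Cxcl12* was lower there. In these cells 12.6% of genes at 10 CPM or more were higher by at least 2-fold, so *Ackr3* did not stand out by its fold. Skeletogenic-like cells had higher *Ackr3* as well (0.45, 0.17 to 0.72). The ratio in Tnc fibroblast-like cells was −0.13 (−0.26 to −0.01). Without the low copies of shared barcodes the ratios of *Ackr3* were −1.23, −1.07, 0.81, 0.45 and −0.13 for Sfrp4 fibroblast-like, unsubtyped, adventitial-like, skeletogenic-like and Tnc fibroblast-like cells. In adventitial-like cells the median gene at 50 CPM or more was itself at 0.24 on the log2 scale. Relative to it, *Ackr3* was at 0.56 and *Cxcl12* at −1.41. A Louvain cluster of 0 control and 118 *Smo* cKO cells shared the leading genes *Ly6c1* and *Ly6a* with adventitial-like cells. Whether the adventitial-like cells of the 2 libraries were alike in make-up was not tested.

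Over all connective cells *Ackr3* was at 29.8 control and 23.0 *Smo* cKO CPM, a log2 ratio of −0.37 (−0.46 to −0.29), and −0.37 without the low copies. With equal weight per cell the outcome depended on the depth kept. After thinning to 1000 UMIs the ratio was −0.052 (−0.37 to 0.26), and *Ackr3* was found in 2.79% and 2.76% of connective cells, a difference of −0.033 points (−0.63 to 0.57), against 0.363% and 0.248% of hematopoietic cells. After thinning to 2000 UMIs the shares were 5.68% and 4.08%, a difference of −1.60 points with an interval (−2.38 to −0.81) that excludes no difference. Before thinning, 24.3% and 21.0% of connective cells had an *Ackr3* UMI. The subclass ratios under thinning to 1000 UMIs were −0.69 (−1.37 to −0.04) for unsubtyped, −1.19 (−2.81 to 0.21, from 18 and 6 UMIs) for Sfrp4 fibroblast-like, 0.045 (−0.49 to 0.59) for Tnc fibroblast-like, 1.40 (0.40 to 2.38) for adventitial-like and 1.16 (0.14 to 2.23) for skeletogenic-like cells. In adventitial-like cells 4.55% of control and 13.1% of *Smo* cKO cells then had an *Ackr3* UMI, a difference of 8.57 points (3.11 to 15.9).

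**Figure D4:**
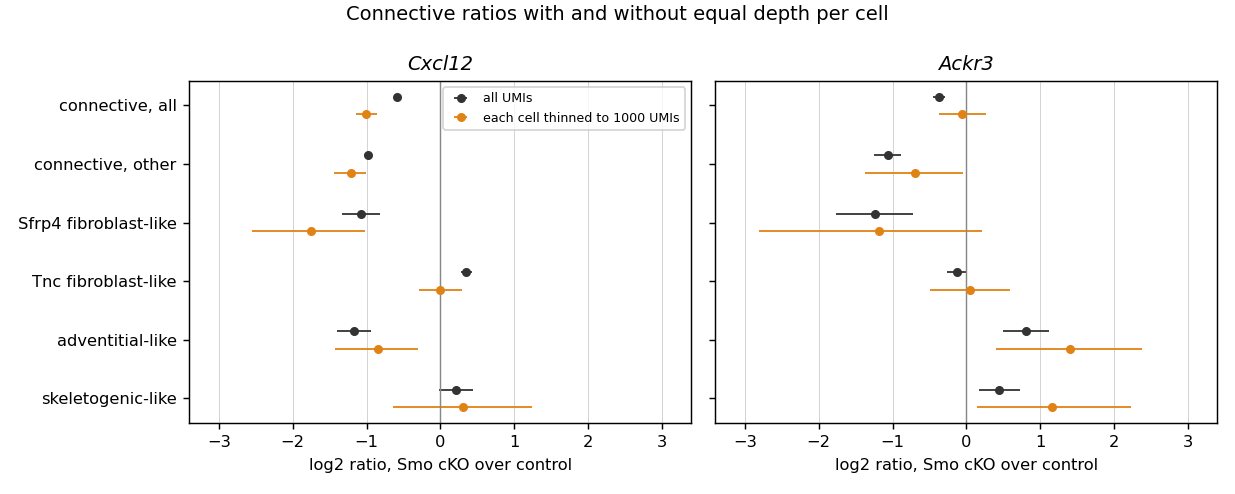
The log2 ratio, *Smo* cKO over control, of *Cxcl12* and *Ackr3* in connective cells is shown with all UMIs (black) and with each cell thinned to 1000 UMIs (orange), with exact 95% intervals. For all connective cells *Cxcl12* moved from −0.59 to −1.01 and *Ackr3* from −0.37 to −0.052, while *Ackr3* in adventitial-like cells was above 0 in both.

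Joint detection of ligand and scavenger in connective cells was near the share of all connective cells with *Cxcl12*. In the control library 973 of 1623 *Ackr3*-detected connective cells also had a *Cxcl12* UMI, against 3714 of all 6684 connective cells. In the *Smo* cKO it was 734 of 1167, against 3002 of all 5560. Detection went with depth: cells with *Cxcl12* had a median of 12644.5 and 17377.5 UMIs and those without it 9522.5 and 10577.5. Per UMI, *Ackr3* was at 28.5 and 21.8 CPM in cells with a *Cxcl12* UMI and at 32.0 and 25.3 CPM in cells without. The subclasses did not all follow this. In unsubtyped cells *Ackr3* was at 27.1 and 12.6 CPM with *Cxcl12* and at 23.2 and 12.2 CPM without, and in Sfrp4 fibroblast-like cells at 50.9 and 38.1 CPM with it and at 43.0 and 13.5 CPM without. In Tnc fibroblast-like cells the order was that of all connective cells, with 27.7 and 24.3 CPM against 31.7 and 32.8 CPM. It was the same in adventitial-like cells, where *Ackr3* was at 67.8 and 115.5 CPM in cells with *Cxcl12* and at 98.5 and 171 CPM in cells without. In blood endothelial cells 15 of 22 *Cxcr4*-detected control cells and 8 of 15 *Smo* cKO cells also had *Cxcl12*. Of all blood endothelial cells, 28 of 47 and 17 of 42 had it. *Cxcr4* and *Ackr3* shared 12 of 58 and 23 of 126 *Cxcr4*-detected satellite-like cells, where 34 of 217 and 60 of 405 satellite-like cells had *Ackr3*. Whether these shares differ from the base shares was not tested.

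Across 24 groups with at least 20 cells in each library, taken as 48 points of log2(CPM + 10), *Cxcr4* and *Ackr3* had Pearson's r of −0.63, *Cxcl12* and *Cxcr4* −0.49, and *Cxcl12* and *Ackr3* 0.43. The points share libraries and depth, and r is given as a description. Of 5149 genes compared, those most like *Cxcl12* were *Fbln2* (r = 0.85), *Il1r1* (0.84), *Atp8b1* (0.82), *Cyp1b1* (0.80) and *Igfbp7* (0.80), which include an extracellular matrix glycoprotein and the receptor of interleukin-1. Those most like *Cxcr4* were *Hcls1* (0.88), *Inpp5d* (0.87), *Snx20* (0.85), *Ucp2* (0.84) and *Cyth4* (0.83). *Hcls1* encodes a hematopoietic cortactin relative and *Inpp5d* the inositol phosphatase SHIP1. The pattern of *Ackr3* was nearest to *Timp3* (0.83), *Rock2* (0.83), *Cavin1* (0.83), *Ltbp4* (0.82) and *Arhgef12* (0.82). *Timp3* encodes a metalloproteinase inhibitor and *Cavin1* a caveola component.

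A list of 36 genes of the CXCL12 pathway was read beside them, of which 33 were in the matrices. In connective cells 8 of these were at 50 CPM or more in a library, and none was 2-fold higher or lower in the *Smo* cKO, where 0.74% of all genes were 2-fold higher and 0.156% lower. Their median log2 ratio was −0.01, against 0.06 for all genes. Among other ligands, *Mif*, a cytokine that also binds CXCR4, was at 906 and 1153 CPM (0.35, 0.33 to 0.36). *Mmp2* and *Mmp14*, proteases able to cut CXCL12, were at 392 and 301 CPM and at 496 and 493 CPM.

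In adventitial-like cells 11 listed genes reached 50 CPM. Of these, *Cxcl12* was lower by at least 2-fold and *Cxcl14*, *Hmgb1* and *Rgs2* were higher, where 1.26% and 10.9% of all genes were. *Cxcl14*, a chemokine, was at 39.3 and 89.5 CPM, *Hmgb1*, a nuclear protein that can pair with CXCL12, at 191 and 426 CPM, and *Rgs2*, a regulator of G protein signals, at 5.32 and 52.3 CPM. Relative to the median gene of these cells they were at 0.95, 0.91 and 3.05, so only *Rgs2* of these stayed above 2-fold. The median of the listed genes was 0.21 and that of all genes 0.24. Over all connective cells *Cxcl14* went the other way, at 28.1 and 16.7 CPM (log2 ratio −0.75, −0.84 to −0.66). In unsubtyped cells its ratio was −1.53 (−1.75 to −1.31).

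In macrophages 13 listed genes reached 50 CPM, and 1 was lower by at least 2-fold, where 0.44% of all genes were. This was *Cd74*, a MIF receptor and the invariant chain of MHC class II, at 1774 and 879 CPM (log2 ratio −1.01, −1.06 to −0.96). Relative to the median gene it was at −0.97. The G protein subunit gene *Gnai2* was at 684 and 661 CPM and the arrestin gene *Arrb2* at 117 and 123 CPM, while *Grk2*, a kinase that switches off chemokine receptors, was at 81.8 and 63.0 CPM (−0.38, −0.60 to −0.15) and *Rgs1* at 151 and 191 CPM (0.34, 0.19 to 0.49). The listed genes had a median of −0.31 and all genes −0.04. Osteoclast-like cells had the kinase gene *Grk3* at 154 and 147 CPM and *Mmp9*, another protease of the list, at 2155 and 2066 CPM. The lower *Cd74* was not particular to macrophages. Its log2 ratio was −0.43 (−0.47 to −0.40) in dendritic-like and −0.97 (−1.26 to −0.69) in osteoclast-like cells. In connective cells it was −0.47 (−0.54 to −0.39) and in satellite-like cells −1.64 (−2.09 to −1.20). How much of this was free RNA was not tested.

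In neutrophil-like cells 15 listed genes reached 50 CPM, of which 5 were lower (*Mif*, *Cxcr4*, *Cd74*, *Rgs1* and *Itch*) and 1 higher, where 12.3% and 7.82% of all genes were. The higher gene was *Elane*, a protease of granulocyte precursors, with 0 and 28 UMIs. In blood endothelial cells 2 of 13 were lower, where 2.41% of all genes were. These were *Adm* (adrenomedullin), at 71.4 and 24.8 CPM from 37 and 11 UMIs, and *Ackr1*, an atypical receptor of inflammatory chemokines known from venules, at 110 and 51.9 CPM from 57 and 23 UMIs. *Ackr2*, which scavenges inflammatory chemokines, was at 87.5 and 74.4 CPM in lymphatic endothelial cells and had no UMI in blood endothelial cells. *Ackr4* was under 1 CPM in connective cells, and *Cxcr3* was at 0.278 and 1.96 CPM in macrophages and at 3.68 and 4.29 CPM in dendritic-like cells.

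**Figure D5:**
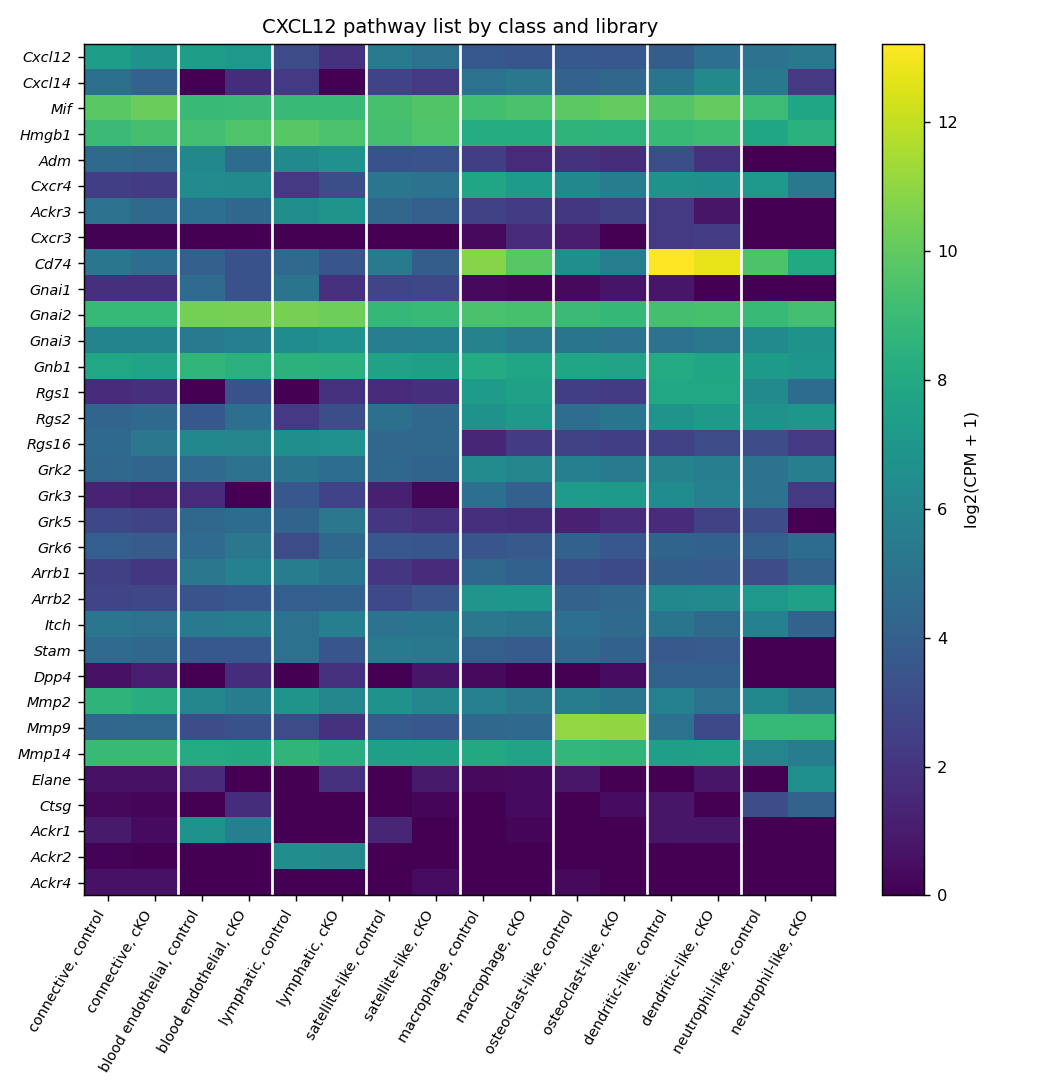
Colours show log2(CPM + 1) of the 33 measured genes of the CXCL12 pathway list in 8 groups, with the control and *Smo* cKO library side by side. *Ackr1* marked blood and *Ackr2* lymphatic endothelial cells, *Cd74* was highest in dendritic-like cells, and *Cxcr4* was high in macrophages, dendritic-like and blood endothelial cells.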

How the data were processed

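Calluses were dissociated and profiled on the 10x Chromium platform. The authors deposited filtered matrices of raw UMI counts per gene and cell, and the submitters' processing notes name Cell Ranger 3.0.2 and mm10. Cells with at least 200 genes and under 10% mitochondrial UMIs were kept, with no upper gene limit, at a median of 8367 and 9092 UMIs. Class profiles were pooled from up to 50 seed cells with at least 3 markers of a list, and a cell took the class or subclass whose multinomial likelihood over 260 markers led the next by 9 to 1. Of 28 lists, 25 were made classes. The gating rule was set after the matrices were seen. Lists for glial cells, mast cells or basophils, and marrow stromal cells, with 4, 8 and 32 candidate seed cells, were not made classes. Doublets were kept, because Scrublet at its own threshold called 0 and 2 cells and so had not worked.

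UMIs were summed per library and class and divided by the class total (CPM). Levels carry exact Poisson intervals, ratios the exact conditional interval, shares Clopper-Pearson intervals and differences of shares Newcombe intervals, all at 95%. They cover counting error only. A gene at 0 was given the level of 3 UMIs as a limit. Thinning drew 1000 UMIs per cell and left out shallower cells. Genes were counted as 2-fold higher or lower among those at 50 CPM or more in a library (10 CPM as the alternative). No test was run, since each genotype is 1 library. The genes named are *Cxcl12*, *Cxcr4*, *Ackr3*, *Smo*, the pathway list, the 5 genes nearest in pattern to each, and leading markers. These genes, the lists and the comparisons were chosen with earlier results of these data known. The ratio and counting steps were tested on simulated data. Python 3.11.15, numpy 2.4.6, scipy 1.17.1, pandas 2.3.3, scanpy 1.11.5 and igraph 0.11.9 were used. Alternatives were another gene limit, no mitochondrial limit, a stricter gate (100 to 1), Louvain clusters (17), thinning and other scalings. Leaving out the low copies of shared barcodes and the 8% of cells with the highest Scrublet scores was added after seeing the data. Gene positions are from GENCODE vM21.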

Additional observations from a re-analysis of the deposited data

Results flagged for a closer look

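The ratio, *Smo* cKO over control, lay on opposite sides of 0 in different subclasses, for *Cxcl12* and *Ackr3* among groups with at least 50 cells and 3 UMIs of the gene in each library. The difference between subclasses was not tested, because each genotype is 1 library. For *Cxcl12* the log2 ratio was above 0 in Tnc fibroblast-like cells (0.35) and dendritic-like cells (0.96, from 19 and 38 UMIs), and below 0 in unsubtyped connective (−0.98), Sfrp4 fibroblast-like (−1.07), adventitial-like (−1.16), tendon-like (−0.28) and satellite-like cells (−0.40). For *Ackr3* it was above 0 in adventitial-like (0.81) and skeletogenic-like cells (0.45), and below 0 in unsubtyped connective (−1.06), Sfrp4 fibroblast-like (−1.23), Tnc fibroblast-like (−0.13) and tendon-like cells (−0.76). In satellite-like cells *Cxcl12* was at the ratio to *Col3a1* of connective cells and is not read as expression, and in dendritic-like cells 1.28% and 1.75% of thinned cells had a *Cxcl12* UMI, against 1.08% and 1.17% of macrophages. With each cell thinned to 1000 UMIs, both intervals for Tnc fibroblast-like cells included 0, with *Cxcl12* at 0.0013 (−0.29 to 0.30) and *Ackr3* at 0.045 (−0.49 to 0.59).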

How the results depend on the processing

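Of 196 values recomputed under an alternative, 137 stayed within their counting interval or, for counts, within 1.5 times, 58 moved and 1 reversed. Thinning each cell to 1000 UMIs put the *Cxcr4* ratio of hematopoietic cells at −0.45, the *Cxcl12* ratio of connective cells at −1.01 and their *Ackr3* ratio at −0.052, and reversed *Ackr3* in Tnc fibroblast-like cells to 0.045 (−0.49 to 0.59). At 2000 UMIs the thinned *Ackr3* share of connective cells differed by −1.60 points (−2.38 to −0.81). With at most 2000 genes per cell, the limit in the study's methods, the connective ratios were −1.64 (*Cxcl12*) and −0.53 (*Ackr3*). That limit left 2503 and 386 connective UMIs of *Cxcl12* (14295 and 9430 without it) and 258 and 86 of *Ackr3* (2613 and 2005 without it). Values at 2000 genes thus leave out most connective UMIs, more so in the *Smo* cKO. Scaling by the median gene gave −0.65 for *Cxcl12*. The hematopoietic share of *Cxcr4* UMIs (control and *Smo* cKO) was 94.3% and 94.5% at 2000 genes, 89.2% and 87.3% when thinned, and 79.5% and 77.0% without the highest Scrublet scores, an alternative chosen after seeing the data. The connective share of *Ackr3* UMIs was 85.1% and 65.6% at 2000 genes, 90.6% and 84.8% by Louvain clusters and 86.8% and 84.8% when thinned. That of *Cxcl12* was 94.8% and 75.7%, 94.1% and 90.4%, and 95.9% and 90.2% under these alternatives, and 97.0% and 95.9% without the highest Scrublet scores. Counts of genes past 2-fold grew with the minimum at 10 CPM, to 19 lower in connective, 33 in unsubtyped and 98 in Sfrp4 fibroblast-like cells, 953 higher and 233 lower in adventitial-like cells, 40 lower in macrophages, 1345 lower and 1313 higher in neutrophil-like and 624 lower in blood endothelial cells. Median gene scaling and TMM gave 144 and 142 higher and 79 and 85 lower genes in adventitial-like cells (294 higher and 34 lower as reported), and 7 and 6 lower in macrophages. TMM gave 161 lower in neutrophil-like cells. With a constant of 1 CPM, 2, 3 and 2 of the 5 genes nearest to *Cxcl12*, *Cxcr4* and *Ackr3* were kept. The cause of these moves was not tested.

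No paired analysis was possible because each genotype is 1 library, and for the same reason none was left out in turn. The planned run without called doublets was not made, since Scrublet called 0 and 2 cells. Depth limits the small groups most: neutrophil-like cells had a median of 1122 and 1706 UMIs, and blood and lymphatic endothelium rest on 24 to 47 cells a library.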
